A study of Mus musculus with 48 samples.

Results

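Visceral white fat from female and male C57BL6/J mice that had eaten regular chow for 12 weeks was compared across the autosomal genes. The comparison was chosen by the sample names and rests on 6 of the 48 samples of the series, 3 females (numbers 5, 7 and 8) against 3 males (numbers 2, 3 and 4), each a library of polyA RNA. The animals entered the study at 8 weeks of age and carried no transgene or drug treatment. Other samples of the series came from liver, from 2 weeks on the diets, and from a high-fat diet with 45% of calories from fat. The visceral depot is not named further in the labels. They do not say whether the 3 samples of a group came from separate animals, so p-values measure the spread between these samples. Of 30055 gene symbols, 17411 autosomal genes had enough counts to be tested.

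White fat stores triglyceride in adipocytes, which lie among progenitors, vessels and immune cells, and it secretes hormones such as leptin. Fat depots of males and females differ in how they expand and in which steroid hormones they receive and inactivate. In mice the visceral pads lie against the reproductive tract, the epididymis in males and the uterus and ovary in females. Patterning factors such as the Hox genes are expressed by position along the body axis and mark fat depots throughout life.

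Levels are CPM, counts scaled to library size with TMM (trimmed mean of M-values) factors, and fold changes are log2 of female over male with a standard error from edgeR. The threshold for a call was an adjusted p of 0.05 (Benjamini-Hochberg) in edgeR's quasi-likelihood test. Library totals in the 6 samples ran from 56.46 to 74.77 M expected counts. The sample labels were checked on Ddx3y, a Y-linked helicase, which lay at 0.583 to 0.677 CPM in the females and 41.7 to 74.8 CPM in the males. Fat identity was present in every sample. Adipoq, the adiponectin gene, lay at 2731 to 3484 CPM in females and 2534 to 3710 CPM in males. Of 24 adipocyte identity genes tested, edgeR called 1, leptin, lower in females. DESeq2 called 2 higher and 1 lower, and edgeR without male 2 called 1 in each direction.

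In all, 1842 of 17411 autosomal genes were called (10.6%), 774 higher in females (4.45%) and 1068 lower in females (6.13%). The median log2 fold change over all autosomal genes tested was -0.02. Called genes higher in females had a median of 1.19, and those lower in females a median of -2.47. In 457 of the 1068 lower genes every female lay under 1 CPM, and in 100 of the 774 higher genes every male did. The sexes did not overlap in 5539 of the 17411 genes (31.8%), and in 1719 of the 1842 called. The number called depended on single samples. It fell to 451 without female 5, 404 without female 8, 817 without female 7, 582 without male 3 and 466 without male 4, and was 4323 without male 2. A core of 125 higher and 119 lower genes was called in all 6 fits with a sample left out. Of these, 107 and 102 were also called under all 7 other settings tried, which included DESeq2, another scaling and a fit of the compared groups alone. Genes of this last kind are called stable below.

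**Figure D1:**
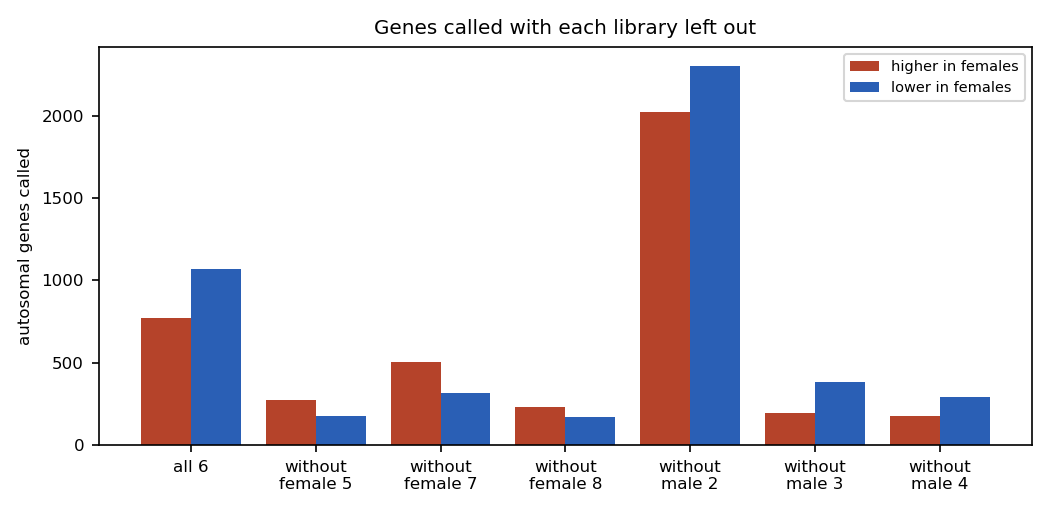
Autosomal genes called higher (red) and lower (blue) in females (vertical axis, number of genes), with all 6 samples and with each one left out in turn. All 6 samples give 774 higher and 1068 lower, leaving out male 2 raises both counts, and leaving out any other sample lowers both.

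Several samples stood apart. Male 4 correlated in log2 CPM with the other 5 samples at 0.793 to 0.916, while pairs without it lay between 0.871 and 0.977, and it held the highest value in 511 of the 1068 lower genes. All 3 males carried transcripts of the male tract. Crisp1, a secreted protein of the epididymis, lay at 3050, 3022 and 5453 CPM in males 2, 3 and 4 and at no more than 0.0557 CPM in the females. Summed over 44 epididymal markers the level was 4.32, 7.59 and 4.48 CPM in the females and 4349, 4591 and 8148 CPM in the males. Of these 44 markers, 26 had no count in any female. In the males 16 of the 44 exceeded 1 CPM in every sample and 26 in at least 1 sample, and the rest exceeded it in none. Low defining markers in the males included Gpx5, at no more than 1.02 CPM, and Lcn8, at no more than 0.0928 CPM. Epithelial markers summed to 47.9 to 68.2 CPM in the females and 611 to 1034 CPM in the males. Sperm protamine Prm2 lay at 8.59, 41.9 and 24.3 CPM in the males and at no more than 0.0161 CPM in the females.

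The males also differed among themselves in other transcripts. Akr1b7, an aldo-keto reductase, lay at 1545, 9.22 and 32680 CPM in males 2, 3 and 4. Cuzd1, listed here among the ovary and female tract markers, lay at 1033, 1261 and 48.8 CPM in the same males. It lay at no more than 2.71 CPM in the females compared, and at 38.4 CPM in female 1 on high-fat diet at 2 weeks. The males thus differed in order between transcripts, with Akr1b7 lowest in male 3 and Cuzd1 lowest in male 4. Female 7 carried transcripts of steroid-producing ovary. Cyp11a1, the enzyme that opens steroid synthesis, lay at 362 CPM in female 7 against 0.758 and 1.15 CPM in females 5 and 8. Amh, a hormone of the ovarian follicle, lay at 10.8 CPM there against 0.226 and 0.127 CPM. The fold change of Cyp11a1 went from 6.80 to -0.18 without female 7, and its call was lost without female 7, male 3 or male 4.

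**Figure D2:**
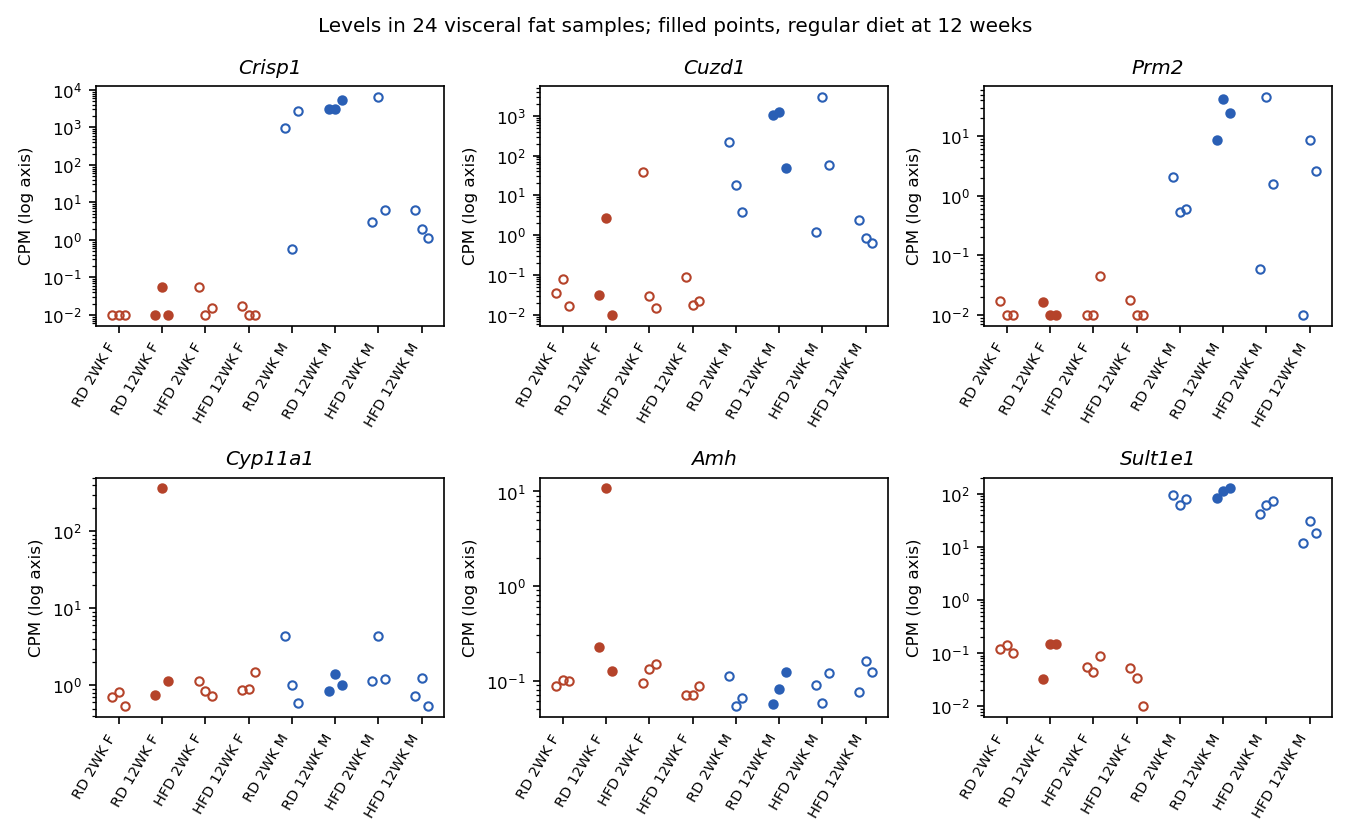
Levels (CPM, log axis, values under 0.01 drawn at 0.01) of Crisp1, Cuzd1, the sperm transcript Prm2, the ovarian transcripts Cyp11a1 and Amh, and Sult1e1. The 24 visceral fat samples are ordered by diet (RD regular, HFD high-fat), week and sex (red females, blue males). Filled points are the 6 samples compared; Crisp1 lies at 3022 CPM or more in all 3 males, Cyp11a1 and Amh stand out in a single female, and Sult1e1 separates the sexes in every group.

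Male groups of the series differed in tract transcripts. On regular diet at 2 weeks, Crisp1 lay at 970, 0.586 and 2682 CPM in males 6, 7 and 8. On high-fat diet at 12 weeks it lay at 6.3, 1.89 and 1.14 CPM in males 2, 3 and 4. On high-fat diet at 2 weeks it lay at 3.05, 6500 and 6.29 CPM in males 12, 13 and 14, with the highest value of the 24 visceral fat samples in male 13. Cd52, a small surface glycoprotein of lymphocytes and epididymal epithelium, lay at 511, 726 and 2345 CPM in the 3 males compared, at 274, 18.3 and 494 CPM in the regular-diet males at 2 weeks, at 51.3 to 59.8 CPM in the high-fat males at 12 weeks, and at 21.9, 1424 and 20.7 CPM in those at 2 weeks. The females compared had 12.4, 16.6 and 19.4 CPM. Cd52 was lower in females by -6.21 ± 1.40 (adjusted p = 0.014), a call lost without female 5 or female 8. In bulk tissue, fewer cells of a type and less RNA per cell cannot be told apart.

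Among the steroid genes, estrogen sulfotransferase separated the sexes most sharply. Sult1e1 inactivates estrogens by adding sulfate. It lay at 0.0323, 0.148 and 0.152 CPM in females 5, 7 and 8 and at 81.7, 112 and 126 CPM in males 2, 3 and 4. The groups lay far apart, with a fold change of -9.87 ± 0.52 (adjusted p = 6.2e-10), and the call was stable. It lay at 62.4 CPM in the male at 2 weeks whose Crisp1 was 0.586 CPM, and at 12, 30.9 and 18 CPM in the high-fat males. The sex difference was -9.32 at 2 weeks on regular diet and -9.27 on high-fat diet at 12 weeks. In liver of the same diet and time the direction was opposite, at 4.70 (adjusted p = 0.0124), with 0.174, 0.292 and 4.63 CPM in females and 0.0744, 0.0248 and 0.0957 CPM in males.

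Hsd11b1, which regenerates active glucocorticoid, was also lower in females. Its levels were 46, 46.9 and 22.7 CPM in females and 135, 167 and 119 CPM in males (-1.87 ± 0.33, adjusted p = 0.0037). The call was stable. Fkbp5, a glucocorticoid-responsive chaperone, lay at 40.8, 55.8 and 83.6 CPM in females and 151, 248 and 140 CPM in males. Its fold change was -1.58 ± 0.50 (adjusted p = 0.0495), and it was called in 1 of the 6 fits with a sample left out. Pgr, the progesterone receptor, was higher in females, at 6.36, 8.13 and 3.93 CPM against 0.28, 0.278 and 0.48 CPM (4.14 ± 0.97, adjusted p = 0.017). It lost the call without male 3 or male 4. Esr1, the main estrogen receptor of fat, lay at 136, 116 and 131 CPM in females and 55.2, 97.3 and 32.1 CPM in males and was not called (1.05 ± 0.43, adjusted p = 0.104).

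Of 24 steroid-metabolising enzymes tested, 4 were higher and 5 lower in females (37.5% called, against 10.6% over all genes), with a median of -0.01. The 4 higher were Cyp11a1, Hsd3b1, Star and Akr1c14. No member was called higher without female 7, male 3 or male 4. Besides Sult1e1 and Hsd11b1, the lower members were Akr1b7, Srd5a2 and Sult2b1. Between 2 and 5 members were called lower with a sample left out. Their sum in male 4, 34230 CPM, was nearly all Akr1b7.

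The 250 bases before the start of 3 stable genes are shown as examples, 1 for each of steroid inactivation, heat production and fat expansion. They were picked by hand and not by a rule. Dio2, also a stable thermogenic gene, had a smaller adjusted p than Ucp1 and is not shown. The motif content of the 3 windows is therefore not a rate for the named genes. The sequences are from RefSeq, build GRCm38.p6, written 5′ to 3′ on the gene's strand, at chr5:87591612-87591861 (minus strand), chr8:83290098-83290347 (plus strand) and chr19:42202253-42202502 (minus strand) in the order printed. Capitals mark the core motif GGTCA of the estrogen response element or its reverse complement TGACC.
Sult1e1: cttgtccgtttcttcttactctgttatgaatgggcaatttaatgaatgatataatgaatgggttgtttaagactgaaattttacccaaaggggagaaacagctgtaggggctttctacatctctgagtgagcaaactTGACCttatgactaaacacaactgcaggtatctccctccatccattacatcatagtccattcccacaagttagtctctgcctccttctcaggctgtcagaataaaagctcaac
Ucp1: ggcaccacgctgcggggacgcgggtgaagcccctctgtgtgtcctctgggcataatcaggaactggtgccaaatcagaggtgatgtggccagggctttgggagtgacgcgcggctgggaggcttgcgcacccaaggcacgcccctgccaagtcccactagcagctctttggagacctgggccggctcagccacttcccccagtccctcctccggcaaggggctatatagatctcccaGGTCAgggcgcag
Sfrp5: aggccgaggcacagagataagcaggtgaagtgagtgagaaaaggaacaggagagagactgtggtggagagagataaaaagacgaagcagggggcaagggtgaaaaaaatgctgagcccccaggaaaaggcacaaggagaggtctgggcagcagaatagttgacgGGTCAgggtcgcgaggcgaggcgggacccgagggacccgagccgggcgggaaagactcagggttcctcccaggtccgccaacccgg
Each of the 3 windows holds 1 such motif and none holds AGAACA or TGTTCT, the core motif of the androgen response element. Core motifs were counted on both strands in windows of 300 bases, from 250 before the start to 50 after it. GGTCA was present in 50 of 99 promoters of the called named genes (50.5%) and in 40.7% of 31396 autosomal promoters. AGAACA was present in 14.1% against 19%. No promoter of the called named genes held the exact palindromes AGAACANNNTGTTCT or GGTCANNNTGACC, which occurred in 3 and 23 of the autosomal promoters. The 99 promoters belonged to 88 genes matched by symbol. A match to these letters is a description of the window and not a binding site.

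Of 13 genes tied to fat cell expansion, 5 were lower in females and 1 was higher (46.2% called), with a median of -1.07 against -0.02 for all autosomal genes, and 2 to 5 were lower with a sample left out. Sfrp5, a secreted Wnt antagonist of adipocytes, lay at 2.05, 3.56 and 5.93 CPM in females and 90.2, 49.4 and 75 CPM in males (-4.21 ± 0.55, adjusted p = 0.00031). Mest, an imprinted gene whose level follows fat expansion, lay at 12.8, 24.3 and 15.7 CPM in females and 163, 122 and 104.7 CPM in males (-2.88 ± 0.47, adjusted p = 0.0022). Both calls were stable.

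Klf14, a transcription factor of adipocytes, lay at 1.11, 0.853 and 0.812 CPM in females and 5.62, 2.96 and 2.27 CPM in males (-1.96 ± 0.48, adjusted p = 0.02). The call was lost without any 1 of the females. Nnat and Trp53inp2 were the other 2 lower members, and Kcnk3, a potassium channel, was the higher one. Lep, the satiety hormone, lay at 222, 368 and 225 CPM in females and 837, 1044 and 1064 CPM in males (-1.85 ± 0.49, adjusted p = 0.029). Its call was lost without female 5, female 8, male 3 or male 4. Among secreted factors Sfrp4 was higher in females, at 15, 62 and 38.6 CPM against 3.99, 1.86 and 2.07 CPM (3.86 ± 0.54, adjusted p = 0.00056), a stable call.

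Sfrp5, Mest and Klf14 differed between the diets in their sex difference. On high-fat diet Mest lay at 1121, 871 and 970 CPM in females and 789, 864 and 651 CPM in males. The sex difference there was 0.36, and the interaction, regular minus high-fat, was -3.25 (adjusted p = 0.016), lost without female 5 or female 8. Sfrp5 lay at 241, 121 and 360 CPM in high-fat females and 429, 336 and 376 CPM in high-fat males, with an interaction of -3.55 (adjusted p = 0.017) that was called with any 1 of the 6 samples left out. For Klf14 the interaction was -2.81 (adjusted p = 0.044), kept without male 2 only. At 2 weeks on regular diet Mest and Sfrp5 were lower in females, by -2.96 and -2.54.

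**Figure D3:**
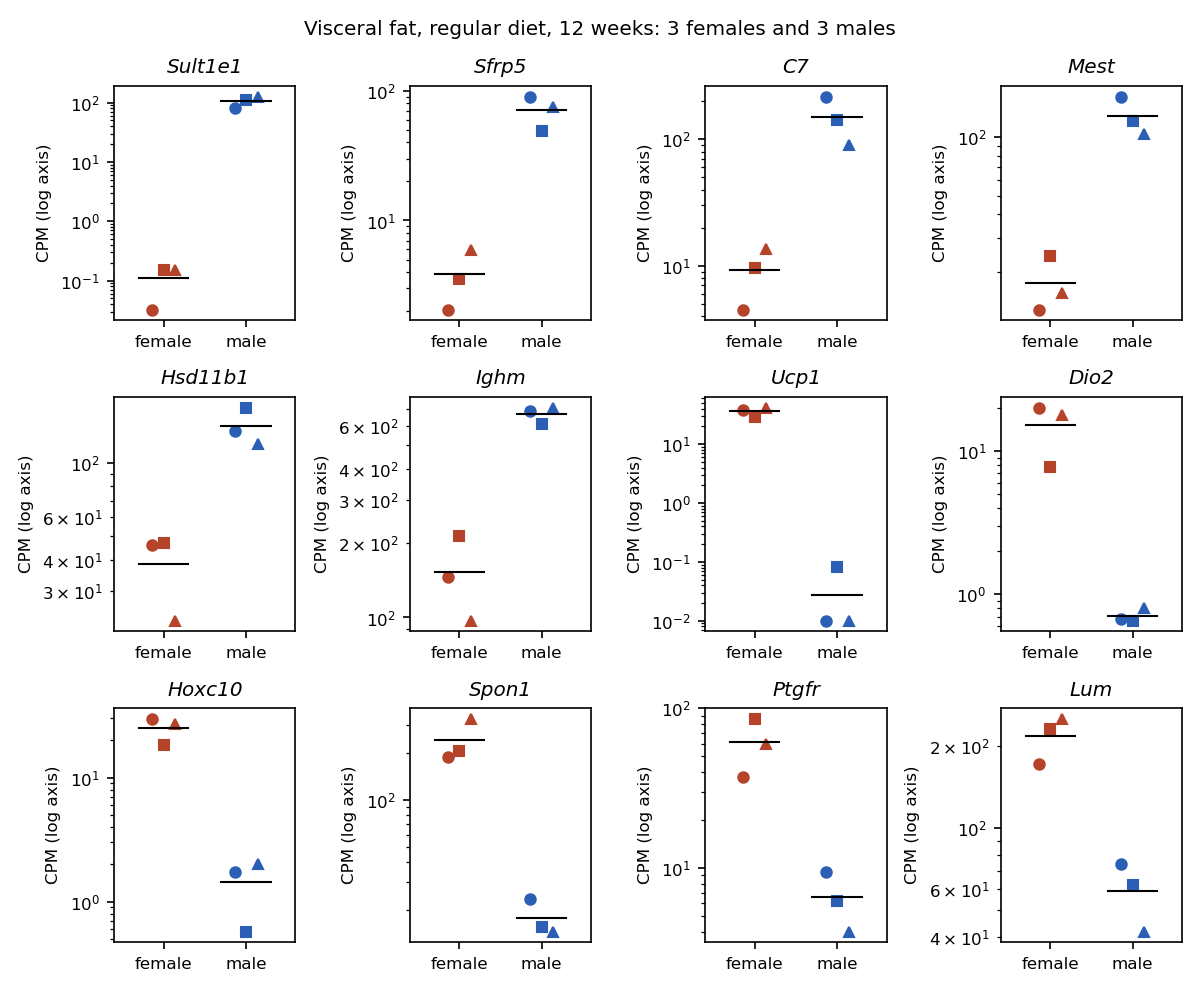
Levels (CPM, log axis, values under 0.01 drawn at 0.01) of 12 genes in the 6 samples. Circles, squares and triangles are females 5, 7 and 8 (red) and males 2, 3 and 4 (blue), and lines are group means; the first 6 genes are lower and the last 6 higher in females, and none overlaps between the sexes, which was a condition for choosing most named genes and held for 31.8% of all autosomal genes tested.

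Positional genes were called in both directions. Of 34 Hox genes tested, 4 were higher in females (Hoxc10, Hoxa9, Hoxc9 and Hoxc6) and 3 lower (Hoxb9, Hoxb7 and Hoxb2), with a median of -0.50. The share called was 20.6%, against 10.6% over all genes. With a sample left out, 1 to 5 were called higher and 1 to 6 lower. Hoxc10, a posterior Hox factor, lay at 29.9, 18.5 and 27 CPM in females and 1.72, 0.572 and 2 CPM in males (4.13 ± 0.45, adjusted p = 4.9e-05). It was stable and was also higher at 2 weeks (5.31) and on high-fat diet (6.75). Hoxa9 lay at 16.7, 12.4 and 13.3 CPM against 2.89, 2.11 and 5.62 CPM (2.00 ± 0.49, adjusted p = 0.021), and lost the call without female 5, female 8 or male 3.

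Hoxb9 moved the other way, with 1.97, 2.32 and 2.03 CPM in females and 7.54, 15.7 and 31.8 CPM in males (-3.12 ± 0.62, adjusted p = 0.0076). Its call was stable, and its difference on high-fat diet was 0.13 and not called. Krt8, an epithelial keratin, had the same order of males, at 67.2, 93.9 and 151 CPM against 5.96 to 11.9 CPM in females. In the high-fat males at 12 weeks Hoxb9 lay at 1.21 to 2.26 CPM and Krt8 at 2.1 to 17.6 CPM, and the part of epithelial RNA in the Hoxb9 difference was not tested. Wt1, a factor of mesothelium and visceral fat progenitors, was higher in females at 38.1, 26.4 and 48.9 CPM against 16, 10.2 and 7.43 CPM (1.75 ± 0.35, adjusted p = 0.0078), also stable. None of 14 mesothelial markers was called by edgeR, and 10 had a positive fold change. At an unadjusted p under 0.05 there were 8, DESeq2 called 2, and without female 7 or male 2 edgeR called 2. Pax2 and Lhx1, factors of the urogenital tract, were lower in females, each in 1 of the 6 fits with a sample left out.

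Of 16 thermogenic genes tested, 5 were higher in females and none lower (31.2% called), with a median of 0.84 and 11 positive. DESeq2 called 7 higher and 1 lower, and the groups compared alone gave 5 and 1. Ucp1, the uncoupling protein of heat-producing adipocytes, lay at 37.9, 29.2 and 41.5 CPM in females. In males it lay at 0, 0.0817 and 0 CPM, a total of 5 expected counts, so no fold is given. The call was stable (adjusted p = 0.0088). Dio2, which activates thyroid hormone, lay at 20.2, 7.74 and 17.8 CPM in females and 0.672, 0.654 and 0.804 CPM in males (4.42 ± 0.65, adjusted p = 0.00088), also stable.

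Ucp1 varied between females elsewhere in the series. It lay at 0.294, 131 and 35.6 CPM in females at 2 weeks and 2.24, 17.9 and 0.131 CPM in high-fat females at 12 weeks. The remaining members, Pdk4, Otop1 and Cox8b, were called in 3, 1 and 1 of the fits with a sample left out. Between 2 and 4 thermogenic members remained called in each of those fits. None of 22 nuclear-encoded oxidative phosphorylation genes was called by edgeR. At an unadjusted p under 0.05 there were 3, DESeq2 called 1 lower, and 3 were called lower without male 2.

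Of 24 fatty acid synthesis genes tested, 8 were higher in females and none lower (33.3% called), with a median of 1.11 and 22 positive. DESeq2 called 14 higher and 1 lower. The 8 were Acaca, Acacb, Fasn, Elovl6, Elovl5, Me1, Tkt and Acss2. Elovl6, the elongase of saturated fatty acids, lay at 1928, 2218 and 238 CPM in females and 134, 89.6 and 95.8 CPM in males (3.78 ± 0.82, adjusted p = 0.011). Its call was lost without male 4 only. Elovl5, an elongase of polyunsaturated fatty acids, lay at 202, 183 and 159 CPM against 101, 98.6 and 67.7 CPM (1.03 ± 0.19, adjusted p = 0.0056), a stable call.

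Female 8 stood below the other females in this group. Fasn, the fatty acid synthase, lay at 4074, 4643 and 816 CPM in females 5, 7 and 8 and at 883, 635 and 448 CPM in males. Female 8 therefore lay between males 2 and 3, and the groups overlapped. Summed over the 24 genes the levels were 110200, 114700 and 39390 CPM in females and 43790, 37710 and 18370 CPM in males. The number called higher was 2 with the groups compared alone, 8 without female 8, 2 without female 5, 2 without female 7, 2 without male 3 and 1 without male 4. At 2 weeks 2 members were higher in females, and on high-fat diet none was.

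Of 20 lipid droplet and lipolysis genes, 2 were higher and 2 lower in females (20% called, against 10.6% over all genes), and DESeq2 called 4 higher and 3 lower. Hcar2, a receptor for ketone bodies that restrains lipolysis, was higher in females at 59.3, 29.9 and 41.8 CPM against 13.7, 14.2 and 9.96 CPM (1.79 ± 0.37, adjusted p = 0.0083), a stable call. Hcar1, the lactate receptor, was higher too, and Adra2c and Fitm1 were lower. Of 24 fatty acid oxidation genes, 2 were higher and none lower by edgeR (8.33%), and DESeq2 called 5 higher. None of 20 genes of branched-chain amino acid breakdown was called, by edgeR with all samples or with any 1 left out. DESeq2 also called 0, and 0 had an unadjusted p under 0.05.

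Of 21 progenitor markers tested, 5 were higher in females (Lum, Cd55, Pi16, Pdgfra and Cd34) and 1 lower (Bmper), 28.6% in all, with a median of 0.51, or 0.58 with genes without counts in a sex at their bound. Lum, a matrix proteoglycan, lay at 172, 231 and 252 CPM in females and 73.7, 61.8 and 41.8 CPM in males (1.88 ± 0.25, adjusted p = 0.00031). Cd55, a complement regulator on early progenitors, lay at 133, 121 and 131 CPM against 53.8, 41.8 and 37.3 CPM (1.54 ± 0.22, adjusted p = 0.0008). Pi16, a marker of the same cells, lay at 196, 108 and 194 CPM against 61.8, 39.3 and 46.8 CPM (1.75 ± 0.36, adjusted p = 0.008). All 3 were stable, and all 3 were higher in females at 2 weeks and on high-fat diet too.

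Of 30 collagen and matrix genes, 8 were higher and none lower (26.7% called, against 10.6% over all genes), with a median of 0.88 and 28 positive. Postn, a matrix protein of remodelling tissue, lay at 257, 166 and 592 CPM in females and 89.8, 39.5 and 49 CPM in males (2.51 ± 0.45, adjusted p = 0.0041). Mmp3, a matrix-degrading protease, lay at 9.68, 12.2 and 29.7 CPM against 1.88, 0.981 and 1.47 CPM (3.57 ± 0.45, adjusted p = 0.0002). Both were stable, and female 8 was the highest sample for each. The number called higher fell to 2 without female 8, to 3 without female 5, to 3 without male 3 and to 2 without male 4, and was 20 without male 2. Col6a5, a collagen VI chain outside the list, was lower in females at 13.4, 8.66 and 21.3 CPM against 189, 86.3 and 58.9 CPM (-2.95 ± 0.61, adjusted p = 0.0088).

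Other stable genes of large difference included Spon1, a secreted matrix protein, at 187, 206 and 330 CPM in females and 23.4, 15.4 and 14.5 CPM in males (3.76 ± 0.51, adjusted p = 0.00042). Ptgfr, the receptor for prostaglandin F, lay at 37.1, 86.1 and 60.2 CPM against 9.44, 6.26 and 3.99 CPM (3.22 ± 0.42, adjusted p = 0.00031). Slc2a3, a glucose transporter, was lower in females at 9.06, 5.6 and 15.9 CPM against 52.2, 73.6 and 63.2 CPM (-2.62 ± 0.42, adjusted p = 0.0021). Of 20 insulin and IGF genes, 5 were higher and 1 lower in females (30% called, against 10.6% over all genes). They included the insulin receptor substrate Irs1, which lost its call without female 5, female 7, male 3 or male 4.

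Immune genes split by type. Of 25 interferon response genes, 11 were higher and none lower (44% called, against 10.6% over all genes), with a median of 1.08 and 24 positive. Gbp3, an interferon-induced GTPase, lay at 37.6, 39.5 and 126 CPM in females and 26.5, 20.2 and 14.1 CPM in males (1.74 ± 0.41, adjusted p = 0.018), a call lost without female 8, male 3 or male 4 and with the groups compared alone. Summed over the list the levels were 738, 813 and 1678 CPM in females and 544, 444 and 453 CPM in males. Without female 8 no interferon gene was called, and 1 was called without male 3 and 1 without male 4. No member was called at 2 weeks or on high-fat diet.

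Irf4, a transcription factor of immune cells and adipocytes, lay at 153, 25 and 331 CPM in females and 13.4, 15 and 5.66 CPM in males (3.90 ± 0.63, adjusted p = 0.0022). It was stable although the females spread widely. On high-fat diet its sex difference was 0.12, and the interaction was 3.78 (adjusted p = 0.0313), lost without female 5, female 8, male 3 or male 4. Ighm, the IgM heavy chain, was lower in females at 146, 215 and 97 CPM against 693, 611 and 712 CPM (-2.14 ± 0.40, adjusted p = 0.0054), a stable call. Igha, the IgA heavy chain, was higher at 160, 226 and 256 CPM against 53.3, 12.9 and 14.1 CPM (3.00 ± 0.85, adjusted p = 0.037), a call kept without male 2 only. The B cell surface markers Cd79b and Ms4a1 were not called.

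In the complement and chemokine list of 24 genes, 3 were higher and 2 lower (20.8% called, against 10.6% over all genes). C7, a component of the membrane attack complex, lay at 4.48, 9.65 and 13.5 CPM in females and 218, 144 and 90.4 CPM in males (-4.03 ± 0.62, adjusted p = 0.0013), a stable call. C3, the central complement protein, was higher at 3952, 2062 and 5091 CPM against 1347, 699.9 and 369 CPM (2.20 ± 0.54, adjusted p = 0.021). It lost the call without female 5, female 8, male 3 or male 4. Of 20 macrophage markers 1 was called (5%), Emr1, higher in females in 2 of the 6 fits with a sample left out. None of 15 lipid-associated macrophage genes and none of 20 endothelial genes was called by edgeR. At an unadjusted p under 0.05 there were 2 and 6, DESeq2 called 1 and 4, and without male 2 edgeR called 12 endothelial genes higher.

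**Figure D4:**
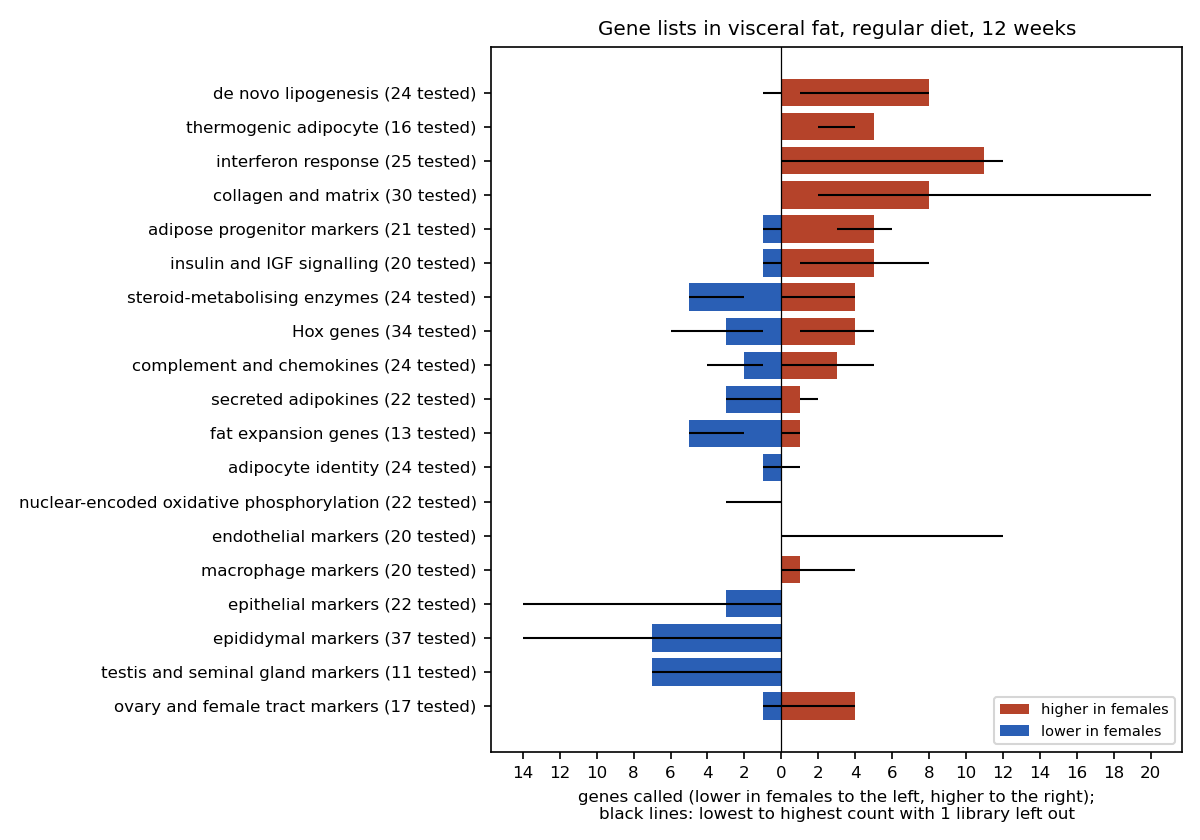
Number of members called higher (red, right) and lower (blue, left) in females for 19 gene lists, with the number tested beside each name; black lines run from the lowest to the highest count with 1 sample left out. Lipogenesis, interferon and matrix lists have called members only on the higher side with all 6 samples, and male tract lists only on the lower side.

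The other lists are given by their counts, to be read against 4.45% higher and 6.13% lower over all autosomal genes. Drug-metabolising enzymes had 1 higher and 3 lower of 25, secreted adipokines 1 and 3 of 22, T and NK cell genes 2 and 1 of 23, other patterning factors 3 and 2 of 28, and circadian clock genes 1 and 1 of 19. Cholesterol synthesis had 1 and 1 of 20, B cell genes 1 and 1 of 18, stress genes 0 and 2 of 19, and steroid and pituitary hormone receptors 2 and 1 of 13. Retinoid and MHC class II genes had 1 higher and none lower, of 22 and 11. Cell cycle, pancreatic, neuronal and skeletal muscle lists had 1 lower and none higher each, of 22, 12, 12 and 15. The share called was 23.1% for the hormone receptors, 18.2% for adipokines, 17.9% for other patterning factors, 16% for drug-metabolising enzymes and 13% for T and NK cell genes, and 11.1% or less for the remaining lists of this paragraph. Mural markers and basal epithelial markers had 0 called by edgeR of 15 and 8, with 2 and 5 at an unadjusted p under 0.05 and 0 and 3 called by DESeq2.

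Of 37 epididymal markers tested, 7 were lower in females and none higher (18.9%), with a median of -9.29, or -5.91 with genes without counts in a sex at their bound. They numbered 21 with DESeq2, 14 without male 2, 4 without male 3, 2 without male 4, 1 without female 7 and 0 without female 5 or female 8. Of 11 testis and seminal gland markers 7 were lower (63.6%), with a median of -10.26 or, at the bounds, -6.84, and 0 to 7 were called with a sample left out. Of 22 epithelial markers 3 were lower (13.6%), and 14 were without male 2. Of 17 ovary and female tract markers 4 were higher (Amh, Inha, Lhcgr and Hsd17b1), and none was without female 7 and 1 without male 3 or male 4. The lower one was Cuzd1, and the share called in both directions was 29.4%.

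Mup20 and Mup7, major urinary proteins, which carry pheromones and are expressed in male liver, were lower in female fat. Mup20 lay at 0.339, 0.185 and 0.0381 CPM in females and 230, 128 and 69.2 CPM in males (-9.60 ± 0.98, adjusted p = 2.3e-05), and Mup7 at 2.31 to 2.89 CPM against 697, 354 and 203 CPM (-7.32 ± 0.85, adjusted p = 0.00011). Both were stable. Mup11, Mup3 and Mup19 were also lower in female fat, by -3.33, -3.11 and -2.89 (edgeR adjusted p = 0.016, 0.026 and 0.037). Their calls were not stable, and held in 3, 2 and 0 of the 6 fits with a sample left out. Mup genes are near-identical copies whose reads the authors' counting may have shared, so values of single members are uncertain. The liver transcript Alb, which encodes albumin, lay at 122, 90.7 and 34.2 CPM in female fat and 370, 200 and 145 CPM in male fat. The ratio of Mup20 to Alb was 0.621, 0.641 and 0.478 in the fat of males 2, 3 and 4 and 0.0795, 0.0971 and 0.0988 in the liver samples with those numbers.

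The other visceral fat groups share no sample with this comparison. At 2 weeks on regular diet 1.97% of autosomal genes were higher and 2.32% lower in females. Of the 774 genes higher at 12 weeks 172 were also called higher at 2 weeks, which is 22.2% of them and 50.1% of the 343 at 2 weeks (83 without female 5, up to 169 with another sample left out). Of the 1068 lower genes 237 were also called lower, 22.2% of them and 58.7% of the 404 at 2 weeks (76 without female 5, up to 231 with another sample left out). Crisp1 lay at 970, 0.586 and 2682 CPM in the males at 2 weeks, and 10 epididymal markers were called lower in females there. The part of tract RNA in this overlap was not tested. Across the 2 directions 2 genes were called the opposite way. The sex by time interaction called 0 genes with edgeR (0%), while 1666 had an unadjusted p under 0.05 and DESeq2 called 95.

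On high-fat diet at 12 weeks 1.01% were higher and 1.78% lower in females. Of the genes higher on regular diet 73 were also higher there, 9.43% of the 774 and 41.7% of the 175 (39 to 77 with a sample left out). Of the genes lower on regular diet 31 were also lower there, 2.9% of the 1068 and 10% of the 310 (24 to 41 with a sample left out). The median difference of the 1068 genes was -2.47 on regular diet and -0.22 on high-fat diet. Crisp1 lay at 1.14 to 6.3 CPM in the high-fat males, and the part of tract RNA in this change was not tested.

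The sex by diet interaction at 12 weeks, which uses the regular-diet samples themselves, called 213 genes (1.22%). The signed female minus male difference was higher on regular diet in 165 of them and lower in 48. This split is by sign and does not say on which diet the sexes lay further apart. On regular diet 53 of the 213 were called higher and 35 lower in females, and 125 were not called. On high-fat diet 124 of the 213 were called between the sexes. Dhrs9, a dehydrogenase/reductase of retinoid handling, lay at 11.2, 3.3 and 13.2 CPM in regular-diet females and 2.26, 1.78 and 0.836 CPM in males (2.51 ± 0.68, adjusted p = 0.03). That call was kept without female 7 or male 2 and lost without any other of the 6 samples, and also with the groups compared alone. On high-fat diet the order was opposite, at 2.98, 5.72 and 5.16 CPM in females and 22.6, 28.6 and 50 CPM in males (-2.87 ± 0.68, adjusted p = 0.026), and neither pair of groups overlapped. The interaction was 5.38 (adjusted p = 0.009) and was called with any 1 of the 6 regular-diet samples left out.

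**Figure D5:**
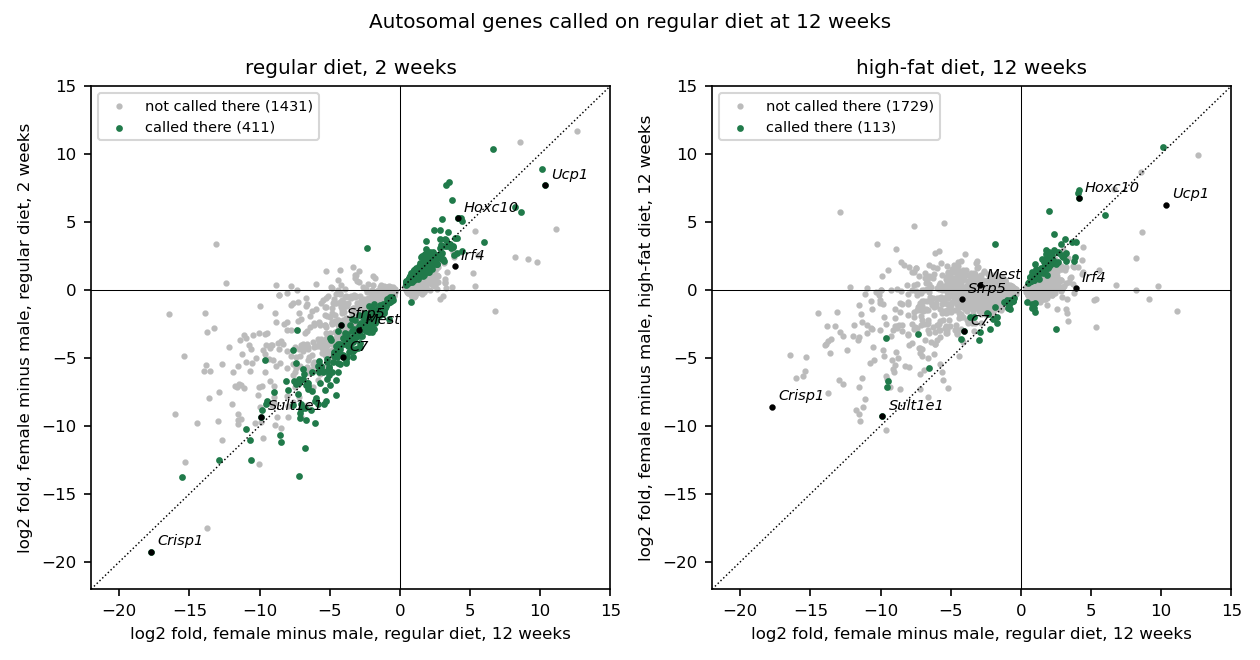
Log2 fold change, female over male, of the 1842 genes called on regular diet at 12 weeks (horizontal) against the same genes at 2 weeks on regular diet (left) and on high-fat diet at 12 weeks (right), with genes called there in green and equality dotted. Sult1e1 and Hoxc10 lie near the dotted line or beyond it in both panels, while Mest and Sfrp5 lie near 0 on high-fat diet.

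Liver on regular diet at 12 weeks came from samples with the same numbers. Of 14894 autosomal genes tested in both tissues, 5.51% were higher and 3.04% lower in female liver. Of the 774 genes higher in female fat 709 were tested in liver, where 129 were higher in females (18.2% of the 709) and 13 lower (1.83%). Of the 1068 lower genes 781 were tested there, with 74 lower in female liver (9.48% of the 781) and 43 higher (5.51%). Cyp2b10, a drug-metabolising cytochrome P450, was lower in female fat at 0.258, 0.26 and 0.342 CPM against 1.27, 0.997 and 3.96 CPM (-2.85 ± 0.53, adjusted p = 0.0057) and higher in female liver (5.48, adjusted p = 0.00056). Whether the 2 tissues differed was not tested.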

How the data were processed

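PolyA RNA libraries of visceral fat and liver, 48 in all, were counted by the authors. The deposited table holds expected counts per gene symbol; kallisto, DESeq2, edgeR and the build GRCm38 appear in the submitters' processing notes, and the step from transcripts to genes was not given in the sources used here. Library kits were stranded, per the labels' protocols. Groups came from the sample names. Expected counts were rounded. The 24 visceral fat libraries, with totals of 44.7 to 105.4 M, were fitted together in 8 groups with edgeR 4.0.16 (filterByExpr by group, TMM scaling, quasi-likelihood F test with robust = TRUE) in R 4.3.3. P-values were adjusted by Benjamini-Hochberg over all 18325 genes tested, and only autosomal genes are reported, by position in GENCODE M21 (96.9% of symbols had 1 position). The standard error is the absolute log2 fold change over the square root of F. Liver was fitted alone in the same way.

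The comparison, 40 gene lists (857 of 862 entries found) and the rules were chosen with earlier results of these data known. Among genes that were called, did not overlap between the sexes, had a log2 CPM of 1 or more on average and no predicted-gene symbol, the 12 highest and 12 lowest fold changes were named, and the same among those with at least 10 CPM in each sex. From every list, the members of smallest p, 4 at most, were named as well, whether or not they met these conditions. Genes named only to complete a list count, and Hoxc6, Hoxb7, Hoxb2 and the tract markers outside these rules, were chosen after their values were seen. Bounds for genes with no count in a sex use 3 counts per library. Alternatives were DESeq2 1.42.0, its median-of-ratios scaling (RLE), no low-count filter, the compared groups alone, robust = FALSE, the male number as a replicate block, adjustment over autosomal genes, and each library left out. In data simulated for this comparison with 200 of 18325 genes changed, 4.46% of calls were false, and 8, 36, 76 and 94% of changes of 1.5, 2, 4 and 8-fold were recovered. The simulation held no outlying sample and no shared tract or ovarian RNA. Its rates therefore need not hold for the real samples. No library was a duplicate of another. A few genes meeting this naming rule are left out of the text.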

Additional observations from a re-analysis of the deposited data

Results flagged for a closer look

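Among the genes named by rule and reported here, 18 had a sex difference that differed between the diets at 12 weeks by edgeR's interaction test at an adjusted p under 0.05. Values are the female minus male log2 difference on regular diet minus that on high-fat diet. It was above 0 for Irf4 3.78, Mmp3 2.63, Gbp6 3.94, Pdk4 2.92, Dhrs9 5.38, Aldh1a2 1.43, Emr1 2.19, Lipa 2.10 and Ciita 1.70. It was below 0 for Hoxc10 -2.62, Mup20 -6.04, Mup7 -4.10, Mest -3.25, Sfrp5 -3.55, Klf14 -2.81, Nqo1 -2.25, Gstt3 -1.83 and Hoxa9 -3.81. Aldh1a2 and Lipa were not called between the sexes on regular diet. For Lipa, the lysosomal acid lipase, the levels were 90.1, 85 and 105.3 CPM in regular-diet females and 90.6, 75.9 and 49.9 CPM in males, against 111, 135 and 158 CPM and 361, 427 and 555 CPM on high-fat diet. For Hoxa9 and Hoxc10 the female excess was larger on high-fat diet. With each of the 6 regular-diet samples left out in turn, Mup20, Sfrp5, Dhrs9, Hoxa9, Emr1 and Lipa were called every time. The others were called in 1 to 4 of the 6 fits. The number of interaction calls was 213, and 900 when the 4 groups of the 12-week comparison were fitted alone.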

How the results depend on the processing

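The main call counts moved with most choices. Without the low-count filter 1201 autosomal genes were called, 506 higher and 695 lower, and DESeq2 called 3671, 1448 higher and 2223 lower. The compared groups alone gave 222 higher and 1164 lower. With a sample left out the total ran from 404 to 4323, the higher genes from 176 to 2021 and the lower genes from 173 to 2302. The share of calls that were higher was 42% in the reported fit, 41.3% under RLE scaling, 16% in the compared groups alone, 53.2% under the replicate block, 33.8 and 37.8% without male 3 and 4, and 61, 61.7 and 57.2% without female 5, 7 and 8.

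The interaction with diet gave 900 genes in the compared groups alone and 1308 with DESeq2, and 76 to 854 with a sample left out. The interaction with time gave 1 gene in the compared groups alone, 95 with DESeq2 and 0 to 3 with a sample left out. Genes higher in females at both times numbered 63 in the compared groups alone and 385 with DESeq2, and 83 to 169 with a sample left out; those lower at both times numbered 767 with DESeq2, and 76 to 231 with a sample left out. Genes higher on both diets numbered 156 with DESeq2, and 39 to 77 with a sample left out; those lower on both diets numbered 59 in the compared groups alone and 133 with DESeq2, and 24 to 41 with a sample left out. Cyp11a1 ran from -0.18 without female 7 to 7.38 without female 5. The causes were not tested.

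The sexes compared share no sample number. Males of the 2 diets at 12 weeks share numbers 2, 3 and 4, with correlations of their deviations of -0.0316, 0.0417 and 0.189 over 12506 genes, so the numbers did not pair them. The replicate block on male number gave 860 higher and 757 lower genes. Of 126 named genes called, 107 kept their call under the replicate block, 125 under RLE scaling and 75 in the compared groups alone. With 3 samples a group, changes under 2-fold were seldom recovered in the simulation.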
